A study of Mus musculus with 8 samples.

Results

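Differentiating committed oligodendrocytes are the cells that have left the precursor pool of the oligodendrocyte lineage and have not yet finished making myelin. They were picked from 2 single-cell RNA libraries of mouse hippocampus by their own transcripts: at least 500 detected genes, under 15% of UMIs (unique molecular identifiers, which count captured RNA molecules) from mitochondrial genes, and at least 1 UMI each of 3 or more of the 7 genes Enpp6, Bmp4, Neu4, Gpr17, Bcas1, 9630013A20Rik and Rnd2. One of Bmp4, Neu4 or 9630013A20Rik had to be among them, and Pdgfra, Mog and Aqp4 could each have at most 1 UMI. Of 12954 cells that passed the first 2 conditions, 198 met the whole rule, 108 in the DTR- library and 90 in the DTR+ library. Since these transcripts chose the members, the levels of these genes in members, and every comparison of members with other classes of cells, are given as a description without a test.

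The study asked how depletion of regulatory T cells alters the hippocampus. Diphtheria toxin was given to mice of both genotypes: Foxp3-DTR+ mice, in which Foxp3-expressing regulatory T cells carry the toxin's receptor, and Foxp3-DTR- littermates, which lack it and served as controls. The labels used here give no age or sex. Mice were perfused, hippocampi were digested, live CD45- Thy1- cells were sorted, and cells of 2 mice were pooled for 1 library per genotype, made with the 10x Genomics single cell 3' chemistry. The pooled mice cannot be separated and each genotype is 1 library, so no test between genotypes was possible: intervals cover counting error only, and genotype and library cannot be told apart. The DTR- library held 53484704 UMIs in 8220 barcodes and the DTR+ library 35814655 in 6548, with 7105 and 5849 cells past the filters at a median of 6116 and 4579 UMIs. Of the barcodes, 18 occurred in both libraries, 1 of them a member. The labelled cell type is neurons and glia, although the sort took CD45- Thy1- cells. Members were chosen by transcripts of the oligodendrocyte lineage, so markers of other cells in them do not measure the sort. In members, 8 neuron markers summed to 85.6 and 71.6 CPM (the gene's UMIs as a proportion of the group's summed UMIs, on the usual CPM scale) in DTR- and DTR+, with Slc17a7 and Camk2a at 0 in both. Of 8 microglia and leukocyte markers, Cx3cr1, P2ry12, C1qa, Tmem119, Csf1r and Ptprc were at 0 in both, and the list summed to 24.0 and 35.8 CPM.

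In the adult brain, precursors that carry the receptor Pdgfra divide, and some commit to differentiation. Commitment is marked by the receptor Gpr17, the secreted ligand Bmp4 and the sialidase Neu4. Later the choline phosphodiesterase Enpp6 and the long noncoding RNA 9630013A20Rik appear, the cell reorganises its cytoskeleton around axons, and myelin proteins and cholesterol are made in bulk. Mog is among the last myelin genes to come on, which is why it closes the window here.

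The label held for the larger share of all members and not for the rest. It held for 66.7% of the members in DTR- but 44.4% in DTR+. When all 12954 cells were clustered without the genes of the class rules, 112 members (72 in DTR-, 40 in DTR+) fell in a single small cluster of 219 cells led by 9630013A20Rik, Fyn, Rnd2, Bmp4, Pdcd4 and Dynll2 (the leading genes were ranked over all genes), called the differentiating cluster below. Another 74 (32 and 42) fell in the precursor cluster, a group of 1541 cells led by C1ql1, Lhfpl3, Pdgfra and Ccnd1. The remaining 12 (4 and 8) lay in clusters led by haemoglobin genes and Meg3 (7 cells), Vtn and Rgs5 (2 cells, both DTR+), Ly6c1 and Cldn5 (2 cells), and Mt3 and Aldoc (1 cell). In the precursor-cluster members Enpp6 stood at 6.20 CPM in DTR- and 0 in DTR+, against 923 and 520 CPM in the members of the differentiating cluster. Pdgfra stood at 143 and 185 CPM in the precursor-cluster members and at 15 and 6.19 CPM in the differentiating cluster. Neu4 was at 608 and 571 CPM in the precursor-cluster members and 433 and 495 in the differentiating cluster, and Gpr17 at 583 and 515 against 743 and 687. The precursor-cluster members thus carried markers that precursors also express and nearly no Enpp6. Rnd2 and Bcas1, which are taken up further on, were not absent from them. Results below are given for all 198 members and for the 112 of the differentiating cluster. Those 112 had a median of 4228.5 and 3630.5 UMIs, and the precursor-cluster members 4961 and 4130.5.

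Many members sat at the edges of the rule. Exactly 3 of the 7 genes were detected in 30 members of the DTR- library and 38 of the DTR+ library, and all 7 in 21 and 6. Just outside, 28 and 47 cells had exactly 2 of the genes, 1 of them a required one, with the exclusions met. Exactly 1 Pdgfra UMI was found in 30 and 37 members, of which 23 and 33 were in the precursor cluster, while 36 and 51 cells with exactly 2 Pdgfra UMIs were left out for that alone. Exactly 1 Mog UMI was found in 18 and 13 members, and 91 and 43 cells were left out only because they had 2 or more Mog UMIs. These Mog-excluded cells were deeper, at a median of 10869 and 13255 UMIs, and Scrublet marked 15.4% and 9.30% of them as doublets (3 of the 108 DTR- members and 5 of the 90 DTR+ members were marked). Only 49 of all 134 Mog-excluded cells lay in the differentiating cluster. Their summed levels below thus cover cells of several clusters, and the part of this mixture in those levels was not tested.

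The stretch before the start of a gene holds part of its promoter. The windows of 3 rule genes are shown because their transcripts were highest in different groups of members in the order described further on: Bmp4 early, Enpp6 in the middle and 9630013A20Rik late. Each is the 250 bases before the RefSeq start on GRCm38.p6, written 5′ to 3′ on the gene's strand: Bmp4 at chr14:46390670-46390919 (minus strand), Enpp6 at chr8:46986637-46986886 (plus strand) and 9630013A20Rik at chr14:84476425-84476674 (minus strand). Capitals mark matches, on either strand, to the letters of motifs of lineage factors: ACAAAG or ACAATG (Sox), CAGCTG (E-box), ATCAAAG (Tcf/Lef) and CTGGCAC (Myrf). No motif lies within another, and the matches shown do not overlap.
Bmp4: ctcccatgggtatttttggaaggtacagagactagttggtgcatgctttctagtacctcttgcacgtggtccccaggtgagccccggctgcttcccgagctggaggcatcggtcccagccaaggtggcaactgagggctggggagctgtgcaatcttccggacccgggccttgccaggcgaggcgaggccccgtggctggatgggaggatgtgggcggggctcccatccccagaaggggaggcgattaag
Enpp6: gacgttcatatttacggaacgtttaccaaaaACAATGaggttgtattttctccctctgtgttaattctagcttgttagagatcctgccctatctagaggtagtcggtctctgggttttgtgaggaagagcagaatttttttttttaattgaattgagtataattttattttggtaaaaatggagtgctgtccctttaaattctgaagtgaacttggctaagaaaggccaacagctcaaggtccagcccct
9630013A20Rik: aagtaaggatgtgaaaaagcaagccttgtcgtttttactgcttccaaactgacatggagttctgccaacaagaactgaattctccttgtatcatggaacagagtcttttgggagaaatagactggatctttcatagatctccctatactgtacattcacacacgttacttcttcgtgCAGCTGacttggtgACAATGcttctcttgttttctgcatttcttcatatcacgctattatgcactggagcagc
The Enpp6 window held ACAATG at bases -219 to -214 from the start. The 9630013A20Rik window held CAGCTG at -73 to -68 and ACAATG at -59 to -54, and the Bmp4 window held none of these letters. The windows of Neu4 and Rras2 were also searched, are not shown, and held none either. Such short letters are common: a Sox match lay in 28.2% of 27025 genes with a window, an E-box match in 14.7%, a Tcf/Lef match in 3.72% and a Myrf match in 4.83%. Among the 87 of the 107 stage-peaked genes defined below that had an entry, the shares were 25.3%, 18.4%, 4.6% and 8.05%. A match is a description of the letters and not a bound site.

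Placed between precursors and mature cells, the differentiating-cluster members had let go of most precursor transcripts, carried part of the myelin transcripts and held a set of genes above both neighbours. Precursors were cells with 3 or more of Pdgfra, Cspg4, C1ql1, Lhfpl3 and Cacng4, Pdgfra among them (706 in DTR-, 876 in DTR+), and mature cells had 2 or more Mog UMIs and 3 or more of 6 late myelin genes (3807 and 2625). Mature cells include nearly all Mog-excluded cells. The share of a cell's UMIs that came from 7 myelin genes outside the member rule (among them Mbp, Mag, Mobp, Cldn11, Cnp and Mal) had a median of 0.0628% and 0.0674% in precursors, 2.95% and 0.911% in the members of the differentiating cluster, and 5.86% and 5.63% in mature cells. The precursor-cluster members, at 0.0713% and 0.0731%, lay beside the precursors. Mag, Mobp and Cldn11 are also among the genes that define mature cells, and the precursor list below holds genes that define precursors. Both shares were thus set in part by the class rules. The share from a list of 20 precursor genes ran the other way, from 1.83% and 1.85% in precursors through 1.49% and 1.57% in precursor-cluster members to 0.148% and 0.229% in members of the differentiating cluster. Within the differentiating cluster the myelin share ran from 0.0368% to 10.3% in DTR- and from 0.0181% to 7.92% in DTR+, so single members covered the whole distance between the other classes.

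**Figure D1:**
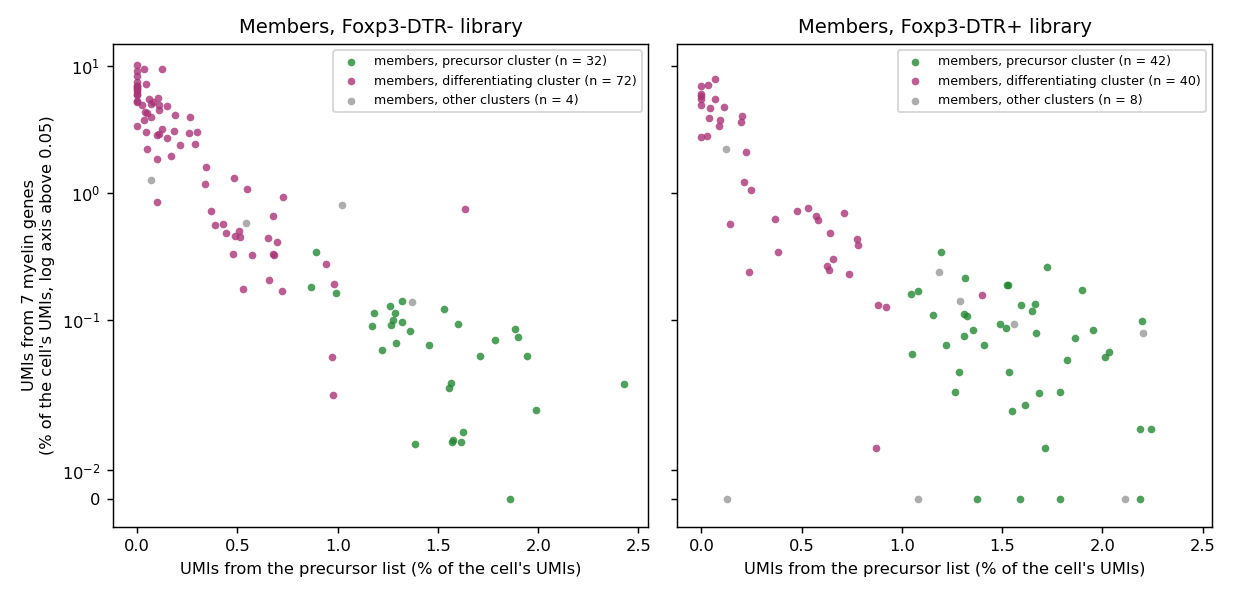
Each point is 1 member, by the share of its UMIs from the precursor list (x axis, %) and from 7 myelin genes (y axis, %, log scale above 0.05), with 1 panel per library and colours for the cluster it fell in. Precursor-cluster members sit at the lower right and members of the differentiating cluster run from the middle to the upper left in both libraries.

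Of 2850 genes that reached 50 CPM in the differentiating-cluster members of both libraries, 107 (3.75%) were at least 2-fold above both precursors and mature cells in both libraries (5 CPM added to each side). Such genes are called stage-peaked here. Because the minimum was set on the members, genes low in members were never counted, and because a rule on cells made the classes, the counts describe the class and support nothing. Over all 198 members the count was 42 of 3062 (1.37%).

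The small GTPase Rras2, which stood first by the lowest of the 4 ratios, was at 160 and 211 CPM in the differentiating-cluster members of DTR- and DTR+, against 9.72 and 9.74 CPM in precursors and 3.70 and 4.13 CPM in mature cells. Fyn, the Src-family kinase that couples axon contact to local myelin protein synthesis, was at 2336 and 1975 CPM, against 243 and 253 in precursors and 57.0 and 58.2 in mature cells. Sirt2, a tubulin deacetylase, was at 6005 and 5919 CPM, with 752 and 733 in precursors and 800 and 827 in mature cells. All 3 were high in both libraries by similar amounts, and in all 3 the Mog-excluded cells lay below the members and above the mature cells (42.3 and 37.2 CPM for Rras2, 428 and 312 for Fyn, 1980 and 1604 for Sirt2). Among the next genes by the same rule were Mycl, a Myc-family transcription factor (178 and 142 CPM against 22.9 and 20.2 in precursors and 0.638 and 0.344 in mature cells), and Dynll2, a dynein light chain (1470 and 1330 CPM against 213 and 233 in precursors). The 20 genes also held Cnksr3, a Ras-pathway scaffold, Pik3r3, a regulatory subunit of phosphoinositide 3-kinase, Pfn2, an actin-binding profilin, Mpzl1, a cell-surface relative of myelin protein zero, Bgn, the proteoglycan biglycan, Ctsl, a lysosomal protease, and Idh1, which makes cytosolic NADPH. In the precursor-cluster members Rras2 stood at 6.20 and 5.60 CPM and Fyn at 267 and 291 CPM, near the levels of precursors.

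Among the gene lists, that of newly formed oligodendrocyte genes held 12 of the 107 stage-peaked genes: of its 26 genes 22 reached the minimum, 16 of these lay outside the class rules, and 12 of the 16 were stage-peaked (Fyn, Cemip2, Rras2, Mpzl1, Tmem163, Sirt2, Cnksr3, Ust, Samd4b, Lims2, Frmd4a and Arpc1b). With all members, 6 of 13 were. The list was put together to describe this stage, so its count is no independent evidence. Of the cytoskeleton and process list, 6 of 22 genes were stage-peaked, among them the tubulins Tubb2b (1688 and 1734 CPM, against 538 and 585 in precursors and 23.7 and 16.8 in mature cells) and Tuba1a (9629 and 8371 CPM), the microtubule-associated protein Map1b and the tetraspanin Cd9. Of 25 lineage transcription factors Mycl alone was. Tcf7l2, the Wnt-pathway effector known for its transient rise in differentiating oligodendrocytes, was at 310 and 118 CPM in members of the differentiating cluster, 81.4 and 58.2 in precursors and 41.3 and 34.4 in mature cells. Its ratio to precursors was past 2-fold in DTR- and just short of it in DTR+. Myrf, the factor that switches on myelin genes, lay between, at 95 and 111 CPM against 17.3 and 16.2 in precursors and 211 and 199 in mature cells. Olig1 and Olig2, which mark the whole lineage, were lower than in precursors in both libraries (Olig1 1186 and 1201 CPM against 2721 and 2600).

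Myelin genes differed in how far they had come on. Of the 30 genes of the myelin list, 17 reached the minimum and 14 of those lay outside the class rules. Of the 14, 11 lay between precursors and mature cells and none was stage-peaked, where 27.2% of all genes lay between (30.9% with all members). Mbp, the major compact-myelin protein, was at 5017 and 3907 CPM in the members of the differentiating cluster, no lower than its 3649 and 3672 CPM in mature cells, and Cnp, a membrane-bound phosphodiesterase of myelin, was at 4705 and 3938 against 5018 and 5463. Other myelin genes were still low. Mal was at 40.0 and 92.9 CPM, near its 56.5 and 75.7 in precursors, against 11235 and 12941 in mature cells. Opalin was at 70.0 and 43.3 CPM against 1877 and 2056, and transferrin (Trf) at 108 and 111 against 5765 and 5770. The Mog-excluded cells, most of which lay outside the differentiating cluster, held Mal at 9778 and 12807 CPM. Between the members and the cells left out for Mog, Mal thus differed far more than Mbp, whose 4442 and 3946 CPM in the Mog-excluded cells were near the members' level.

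Cholesterol synthesis genes were often above precursors: of 16 genes of the sterol list that reached the minimum, 8 were at least 2-fold above precursors in both libraries (8.49% of all genes were) and Mvd and Hsd17b7 were stage-peaked. Hmgcs1, an early enzyme of the pathway, was at 600 and 409 CPM in members of the differentiating cluster, 132 and 118 in precursors and 335 and 360 in mature cells. Of the precursor list, 8 genes outside the class rules reached the minimum, 7 lay between the classes and 4 were at least 2-fold below precursors in both libraries (3.82% of all genes were). Ptprz1, a receptor phosphatase of precursors, was at 838 and 1034 CPM against 4812 and 5260. Cspg5 was at 60.03 and 111 CPM against 3352 and 3054. Both remained near precursor levels in the precursor-cluster members (Ptprz1 3232 and 3710 CPM).

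No member of either library had a UMI of the proliferation genes Mki67 or Top2a. Precursors held them at 13.7 and 13.5 CPM (Mki67) and 23.9 and 23.7 CPM (Top2a). A count of 0 in the members allows up to 5.14 CPM in DTR- and 8.26 CPM in DTR+ (3 UMIs per library, counting error only). Ccnd1, a cyclin that precursors carry at 1083 and 994 CPM, was at 689 and 716 CPM in precursor-cluster members and at 35.0 and 37.1 CPM in the differentiating cluster.

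**Figure D2:**
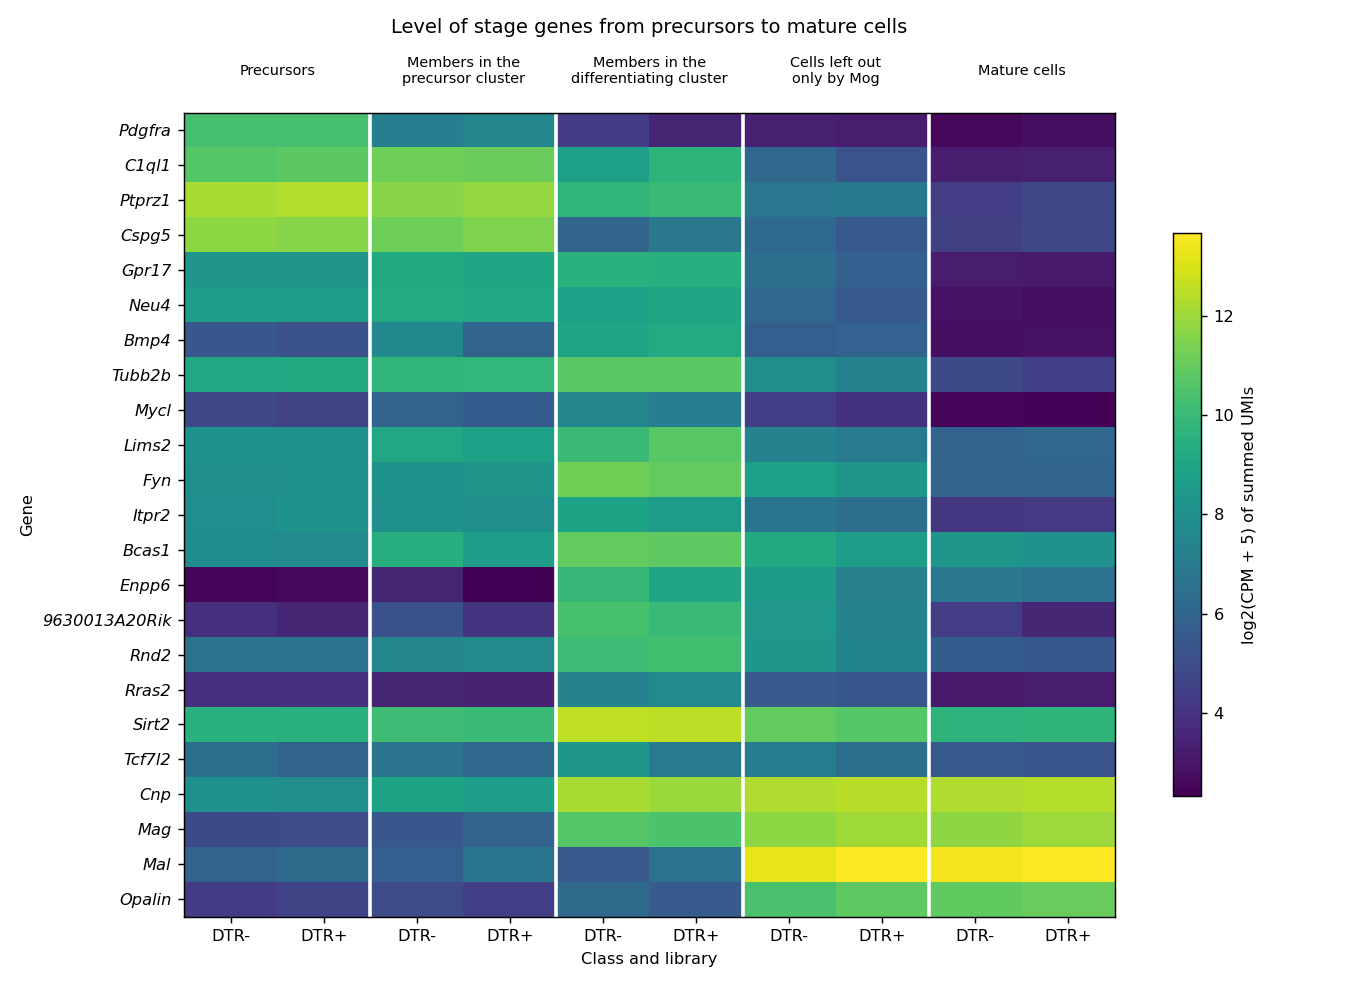
Colour gives the level of each gene (y axis) as log2(CPM + 5) of summed UMIs, for 5 classes of cells in the DTR- and DTR+ libraries (x axis). A band from Tubb2b to Tcf7l2 is brightest in the members of the differentiating cluster, the precursor genes at the top fade there, and Mal and Opalin brighten only in the cells left out by Mog and in mature cells.

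Depth differed between classes, so detection was compared after each cell was thinned to 2000 UMIs (10 members of each library were shallower and were left out). Enpp6 was then found in 68.8% and 58.8% of the differentiating-cluster members and in none of the precursor-cluster members of either library. 9630013A20Rik was found in 65.6% and 55.9% against 6.45% and 4.76%. Bcas1 was found in 81.25% and 82.4% against 71.0% and 52.4%, and in 33.4% and 30.1% of precursors. Neu4 was found more often in the precursor-cluster members, at 74.2% and 73.8%, than in the differentiating cluster, at 42.2% and 47.1%, and was also found in 50.4% and 51.0% of precursors. Pdgfra was found in 87.7% and 90.7% of precursors, 35.5% and 45.2% of precursor-cluster members and 0% and 2.94% of the differentiating cluster. Endothelial cells, which should lack these genes, held Enpp6 in 0.375% and 0%, Neu4 in 0.749% and 0% and 9630013A20Rik in 0% of both libraries. All of these but Pdgfra chose members by their presence, and Pdgfra by its limit of 1 UMI, so their detection in members was set in part by the selection and is a description.

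The 112 members were then put in order by the share of UMIs from the 7 myelin genes and cut into 3 groups of equal size within each library (24, 24 and 24 cells in DTR-, 14, 13 and 13 in DTR+), called early, middle and late. The groups are ranges along 1 axis and not types. Their median myelin shares were 0.426%, 2.95% and 6.25% in DTR- and 0.257%, 1.06% and 5.49% in DTR+, so the DTR+ middle group lay nearer to its early group. Depth was lower along the order, from medians of 7192.5 to 3093 UMIs in DTR- and from 5297.5 to 2570 in DTR+. The part of depth in the counts of cells below was not tested. CPM is relative to each group's summed UMIs.

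The levels of the rule genes along this order are a description, since the rule asked for them. As it required Bmp4, Neu4 or 9630013A20Rik, a late cell with neither Bmp4 nor Neu4 had to carry 9630013A20Rik, which was detected in 24 of 24 late cells in DTR- and 13 of 13 in DTR+. Bmp4 was detected in 22, 13 and 0 cells of the early, middle and late group in DTR- and in 13, 8 and 0 in DTR+. Neu4 was detected in 24, 13 and 1 cells and in 13, 10 and 0. Gpr17 was detected in 24, 12 and 3 and in 13, 8 and 1. All 3 had thus nearly gone by the late group in both libraries. Enpp6 reached its highest level in the middle group, at 507, 1449 and 921 CPM in DTR- and 132, 864 and 689 CPM in DTR+. Bcas1, a protein of cells that are starting to myelinate, was also highest in the middle, at 1958, 2668 and 721 CPM and 1721, 2642 and 659 CPM. 9630013A20Rik was higher in each following group, at 143, 1574 and 3576 CPM in DTR- and 58.9, 532 and 3896 CPM in DTR+, as was the GTPase Rnd2 (276, 1470 and 2335 CPM, and 309, 1396 and 2577 CPM). Members thus differed in which rule genes they carried: of the 72 DTR- members 32 had Enpp6 or 9630013A20Rik with neither Bmp4 nor Neu4, 5 had the reverse and 35 had both kinds, and of the 40 DTR+ members 16, 8 and 16. The cells with both kinds lay between the others by median myelin share, at 0.750% in DTR- (0.175% and 5.38% for the cells with Bmp4 or Neu4 alone and with Enpp6 or 9630013A20Rik alone) and 0.616% in DTR+ (0.202% and 4.84%). Rnd2 and Bcas1 were not confined to the differentiating cluster. With all members ordered the same way, the early groups held 36 DTR- and 30 DTR+ cells, 31 and 25 of them in the precursor cluster. Of the 36 and 30 cells, Rnd2 was detected in 21 and 19 and Bcas1 in 33 and 19.

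Other genes also reached their highest level in different groups. A gene was tested if it reached 50 CPM in any group of either library, so it could enter through the group where it was highest. The groups were small, so genes near this minimum rested on few UMIs, and the counts are a description. Of 5547 genes tested, 1289 (23.2%) were highest in the early group of both libraries, 441 (7.95%) in the middle group of both and 1065 (19.2%) in the late group of both. Over all 198 members ordered the same way the shares were 22.3%, 10.3% and 16.4% of 5740 genes. Of 17 precursor-list genes, which include genes of the class rules, 13 were highest early in both libraries and none late. C1ql1, a secreted protein of precursors, went from 838 to 118 to 0 CPM in DTR- and from 1309 to 731 to 0 CPM in DTR+. Sox6, a factor of undifferentiated cells, went from 320 and 324 CPM in the early groups to 0 in both late groups. Of 32 lineage transcription factors 17 were highest early and 4 late, with Nkx2-2 (215, 83.6 and 0 CPM in DTR-, 118, 83.1 and 0 in DTR+) among the first and Tcf7l2 (121, 439 and 520 CPM, and 58.9, 99.7 and 270 CPM) and Nkx6-2 (11.0, 48.8 and 227, and 29.4, 16.6 and 420) among the last.

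The newly formed list, largely stage-peaked outside the class rules, came apart along this order. Of 24 genes, class-rule genes included, 2 were highest early, 5 in the middle and 11 late in both libraries, and 6 differed between libraries. Lims2, an adaptor at integrin contacts, went from 1472 to 982 to 107 CPM in DTR- and was at 2060, 2044 and 240 CPM in DTR+. Tubb2b was highest in the middle (1787, 2285 and 307 CPM, and 1721, 2592 and 210 CPM), as was Tuba1a. Rras2 was highest late, at 5.51, 83.6 and 681 CPM and 44.1, 0 and 929 CPM. Sirt2 went from 2730 to 7377 to 11303 CPM in DTR- and from 2236 to 7743 to 10130 CPM in DTR+.

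Of 20 sterol genes 14 were highest in the late group of both libraries and none in the early or middle group of both. Hmgcs1 went from 116 to 432 to 2095 CPM in DTR- and from 118 to 150 to 1468 CPM in DTR+, and late levels exceeded those of mature cells in both. Of 16 myelin-list genes outside the order 10 were highest late. Of 22 axon-contact genes 12 were highest late, among them Nfasc, the neurofascin of the paranodal junction (60.7, 1003 and 1975 CPM, and 73.6, 233 and 2368 CPM), and the semaphorin Sema4d (71.7, 251 and 1575 CPM, and 14.7, 166 and 1768 CPM), and 8 were highest early. Of the 7 genes that set the order, Mal alone was not highest late in both libraries, at 55.1, 27.9 and 26.7 CPM in DTR- and 73.6, 83.1 and 150 CPM in DTR+. These levels of Mal rested on few UMIs in each group. Of 14 genes of the list of responses to tissue dissociation 11 were highest in the early group, with Jun at 2096, 216 and 173 CPM in DTR- and 2590, 332 and 330 CPM in DTR+. The part of this response in the early group's other genes was not tested.

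The 2 libraries held members at the same share of cells but of different make-up. Members were 1.52% of filtered cells in DTR- (95% exact binomial interval 1.25 to 1.83) and 1.54% in DTR+ (1.24 to 1.89), a log2 ratio of 0.02 (-0.40 to 0.43). The differentiating cluster held 66.7% of the DTR- members (56.9 to 75.4) and 44.4% of the DTR+ members (34.0 to 55.3). Its members were 1.01% of filtered cells in DTR- (0.794 to 1.27) and 0.684% in DTR+ (0.489 to 0.930), a log2 ratio of -0.57 whose interval, -1.16 to 0.01, just reached 0. Members in the precursor cluster leaned the other way, at 0.450% and 0.718% (log2 ratio 0.67, -0.03 to 1.38). After thinning every cell to 2000 UMIs, which leaves out shallower cells and relaxes the limits on Pdgfra and Mog, 136 of 6309 DTR- cells (2.16%) and 99 of 4940 DTR+ cells (2.004%) met the rule, a log2 ratio of -0.11. The near-equal overall shares thus summed opposite leanings whose intervals each reached 0. At least 1 Enpp6 UMI was found in 58.3% of DTR- members (63 cells) and 32.2% of DTR+ members (29 cells), and 9630013A20Rik in 61.1% (66 cells) and 34.4% (31 cells).

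Neighbouring classes differed between the libraries too. Precursors were 9.94% of filtered cells in DTR- and 14.98% in DTR+, mature cells 53.6% and 44.9%, and Mog-excluded cells 1.28% and 0.735% (log2 ratio -0.80, -1.36 to -0.26). As a share of members plus precursors, members were 13.3% in DTR- and 9.32% in DTR+ (log2 ratio -0.51, -0.93 to -0.09; -0.69 after thinning), and members of the differentiating cluster were 9.25% and 4.37% (-1.08, -1.68 to -0.51). As a share of members plus mature cells, members were 2.76% and 3.31% (0.27, -0.15 to 0.68), and members of the differentiating cluster 1.86% and 1.501% (-0.31, -0.90 to 0.27). The ratios of all members depended on the rule. With at least 2 of the 7 rule genes required, they were -0.24 (-0.60 to 0.11) against precursors and 0.52 (0.17 to 0.88) against mature cells. With at least 4 they were -0.85 (-1.38 to -0.32) and -0.05 (-0.58 to 0.48). Relative to precursors, differentiating-cluster members were thus scarcer in the DTR+ library beyond counting error, and relative to mature cells they were not distinguishable at these counts. All cells of the differentiating cluster, whatever class the rules gave them, were 1.94% and 1.38% (-0.49, -0.90 to -0.08). Genotype, mice and library cannot be told apart in any of these shares.

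**Figure D3:**
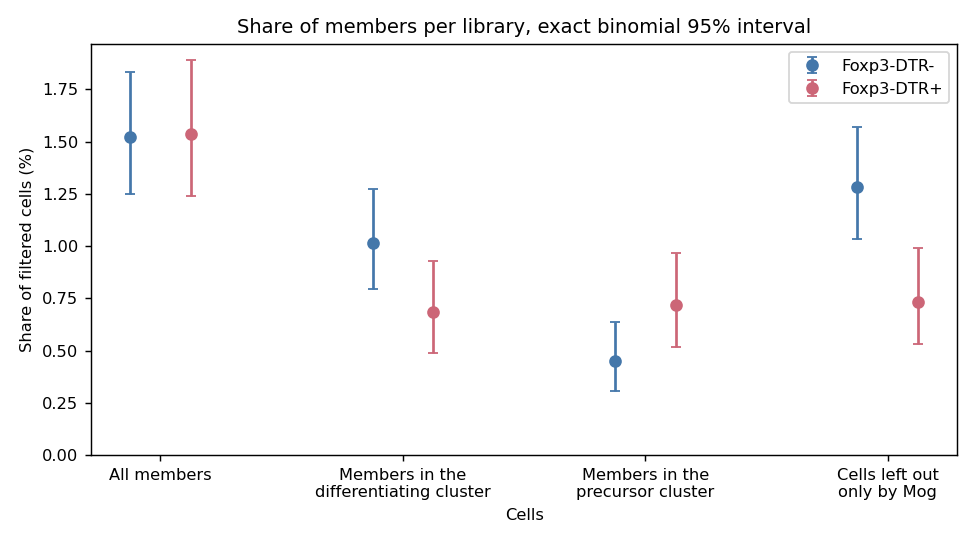
Share of filtered cells (y axis, %, from 0) in the DTR- and DTR+ libraries for 4 groups of cells, as points with exact binomial 95% intervals that cover counting error only. All members sit at 1.52% and 1.54%, while members of the differentiating cluster and Mog-excluded cells are lower in DTR+ and precursor-cluster members are higher.

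Gene levels over all members are set here beside those of the differentiating cluster. Of 4029 genes at 50 CPM or more in either library, 196 (4.86%) were past 2-fold, 118 (2.93%) higher in DTR+ and 78 (1.94%) lower. Of 3919 in the differentiating-cluster members 324 (8.27%) were, 174 (4.44%) higher and 150 (3.83%) lower. In precursors 8 of 4260 (0.188%) and in mature cells 4 of 3123 (0.128%) were. The summed UMIs were 583901 and 363358 in all members and 399829 and 161519 in the differentiating cluster, against 3807029 and 4003141 in precursors, so genes near the minimum rested on few UMIs in members, and the part of this depth in the counts of genes past 2-fold was not tested.

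Precursor genes were higher and genes of newly formed oligodendrocytes lower in all members of the DTR+ library. Of all genes tested, 54.7% were above 0 (higher in DTR+) in all members and 53.4% in the differentiating cluster. The precursor list had 17 of 19 genes above 0 and a median log2 ratio (DTR+ over DTR-) of 0.65, and Cspg4, Cspg5, Emid1, Rlbp1 and Ednrb were past 2-fold. The newly formed list had 1 of 22 above 0 and a median of -0.67. Myelin genes had a median of -0.44 and sterol genes of -0.50, beside 0.05 for all genes tested. In the differentiating-cluster members these medians were 0.38, -0.30, -0.26 and -0.22, each nearer to the 0.04 of all genes. Of the genes tested, 6 of the 19 precursor genes, 6 of the 22 newly formed and 4 of the 21 myelin genes belong to the rules that cut the classes (4 of 12, 6 of 22 and 4 of 21 in the differentiating cluster), so these medians are in part set by the selection. Without those genes the precursor list had 11 of 13 above 0 and a median of 0.60, the newly formed list 1 of 16 and -0.75, and the myelin list 5 of 17 and -0.44. In the differentiating cluster the medians were then 0.22, -0.31 and -0.26. With at least 4 of the 7 rule genes required, the myelin median was 0.24 in all members and 0.38 in the differentiating cluster, so it turned direction, and the sterol median in the differentiating cluster was 0.01.

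**Figure D4:**
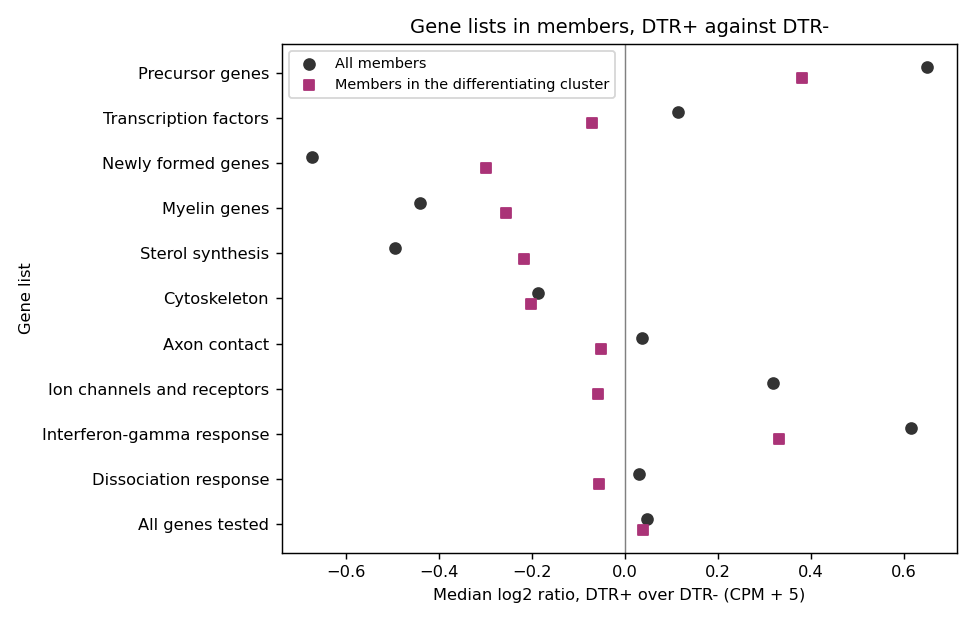
Median log2 ratio of DTR+ over DTR- (x axis, CPM + 5) for 10 gene lists and for all genes tested, over all members (circles) and over members of the differentiating cluster (squares). For the precursor, newly formed, myelin and sterol lists the squares lie nearer to 0 than the circles. In a setting not drawn, with at least 4 rule genes required, the myelin median was 0.24 (all members) and 0.38 (differentiating cluster).

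Some ratios depended on which members were counted. Ednrb, the endothelin B receptor, was at 127 CPM in DTR- members and 336 CPM in DTR+ members, a log2 ratio of 1.37 (interval of the count ratio 0.98 to 1.84). In the differentiating-cluster members it was at 25.01 and 6.19 CPM, on 10 and 1 UMIs, a log2 ratio of -1.42. Hes5, a Notch target that holds cells undifferentiated, was at 51.4 and 151 CPM (1.47, 0.89 to 2.25), and at 15 and 31.0 CPM in the differentiating cluster, on 6 and 5 UMIs. Enpp6 itself was at 647 and 237 CPM in all members (-1.43, -1.81 to -1.11) and at 923 and 520 CPM in the differentiating cluster (-0.82, -1.19 to -0.48). Since Enpp6 was a rule gene, its ratio is a description.

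Other genes had ratios of the same sign in both sets of members, which share cells. Tcf7l2 was at 247 CPM in DTR- members (61 cells) and 88.1 CPM in DTR+ members (26 cells), a log2 ratio of -1.43 (-2.09 to -0.92), and at 310 and 118 CPM in the differentiating cluster (48 and 13 cells; -1.36, -2.18 to -0.70). It was lower in DTR+ in each of the early, middle and late groups, which were not matched between libraries in myelin share. In precursors it was at 81.4 and 58.2 CPM (-0.45) and in mature cells at 41.3 and 34.4 (-0.23). Sgk1, a kinase induced by glucocorticoids, was at 260 and 96.3 CPM (-1.39, -2.01 to -0.90) and at 323 and 92.9 CPM in the differentiating cluster (-1.74, -2.68 to -1.02), with -0.35 (-0.58 to -0.15) in precursors and -0.34 (-0.42 to -0.29) in mature cells. Lpar1, a lysophosphatidic acid receptor of maturing oligodendrocytes, was at 110 and 35.8 CPM (-1.49, -2.60 to -0.74) and at 158 and 74.3 CPM (-1.04, -2.11 to -0.18), but at a ratio of 0.00 with at least 4 rule genes required, and with 0.29 in precursors and -0.03 in mature cells. Pdgfa, the ligand of the precursors' receptor, was at 216 and 79.8 CPM in all members (-1.38, and -1.0 in the differentiating cluster), with 0.21 in precursors and -0.13 in mature cells. Fkbp15 was at 183 and 41.3 CPM (-2.02 and -2.44), with 0.17 and 0.21. Of the genes higher in DTR+, Pcp4, a small calmodulin-binding protein, was at 78.8 and 261 CPM, in 16 and 31 cells (1.67), of which 2 and 3 lay in the differentiating cluster, and at 336 and 335 CPM in precursors. Scamp5, a secretory-carrier membrane protein, was at 37.7 and 110 CPM (1.43, and 1.53 in the differentiating cluster, in 13 and 15 cells), with 0.32 (0.12 to 0.56) in precursors and 0.19 (0.12 to 0.28) in mature cells.

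Other named genes differed between the libraries in the neighbouring classes as well. Ttr, the transthyretin of choroid plexus, was at 104 CPM in DTR- members and 22.0 in DTR+ members (-2.02), and at 105 and 24.8 CPM in the differentiating cluster (-1.89), while its log2 ratio was -2.83 in precursors and -3.66 in mature cells. The other 5 choroid plexus markers stood at 0 in members of both libraries. Hmgn2, a nucleosome-binding protein, was at 176 and 52.3 CPM (-1.66; -1.54 in the differentiating cluster), with -0.71 in precursors and -0.81 in mature cells. Hspa1a, the inducible heat-shock protein, was at 319 and 74.3 CPM (-2.03), and at 300 and 6.19 CPM in the differentiating cluster, in 10 cells and 1 cell, with -0.92 in precursors and -0.46 in mature cells. The dissociation list as a whole had a median of 0.03 in all members and -0.05 in the differentiating cluster. Its summed level was lower in DTR+, at log2 ratios of -0.14 (-0.20 to -0.07) and -0.29 (-0.39 to -0.18). In all members 6 of 12 genes of the list were above 0, and 1 of 13 after thinning. mt-Atp6 was at 75.03 and 217 CPM in the differentiating cluster (1.47), with 0.91 in precursors and 0.996 in mature cells. Like Tcf7l2, Sgk1 and Scamp5, these 4 genes had ratios of the same sign in both neighbouring classes. The differences between the classes were not tested, so no gene here is called particular to the members.

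Of the 26 genes of the interferon-gamma response list only 4 reached the minimum. All 4 were above 0 in all members (median 0.62) and 2 of 4 in the differentiating cluster (0.33). B2m, the light chain of class I molecules, was at 68.5 and 146 CPM in all members (1.04, 0.47 to 1.72) and at 40.0 and 99.1 CPM in the differentiating cluster, on 16 UMIs in each library (1.21, 0.21 to 2.40). In precursors it was at 108 and 111 CPM. H2-K1, a class I heavy chain, was at 71.9 and 116 CPM in all members (0.65, 0.03 to 1.34) and at 72.5 and 130 CPM in the differentiating cluster (0.80, -0.04 to 1.70). The list's median over all members was 0.06 when cells were thinned and 0.28 without the 5 members of each library richest in the list. Pericyte markers summed to 3.43 CPM in DTR- members and 652 CPM in DTR+ members, of which 2 cells outside the differentiating cluster held 235 of 237 UMIs. In the differentiating cluster the sum was 2.50 and 6.19 CPM, with 7 of 8 pericyte genes at 0. Astrocyte markers summed to 572 and 570 CPM in all members and 353 and 285 CPM in the differentiating cluster, with 9 of 10 genes detected among all members of each library. Endothelial markers summed to 867 and 782 CPM (560 and 526 in the differentiating cluster), and haemoglobin and other blood genes to 20.6 and 44.03 CPM (20.01 and 24.8). Some of these markers were higher in precursors than in members. The median log2 ratio of all members to precursors was -1.13 and -1.09 for the astrocyte genes Aldoc, Slc1a2 and Slc1a3. That of Bsg, of the endothelial list, was -0.16 and -0.08. The sums thus do not separate other cells' transcripts from those of the lineage. The part of other cells' transcripts in the ratios of all members was not tested.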

How the data were processed

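Single-cell RNA-seq of sorted CD45- Thy1- hippocampal cells gave 1 library per genotype, each from 2 pooled mice. The authors deposited filtered UMI count matrices, made with Cell Ranger 6.1.0 per the file headers. The build mm10 and Seurat are named in the submitters' processing notes, with no role given. The matrices held 55487 gene IDs, and counts were used as deposited.

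Members, precursors and mature cells were cut by transcript rules, and counts were summed per class and library as CPM. Ratios are log2 with 5 CPM added to both sides, over genes at 50 CPM or more, and past 2-fold is a log2 ratio of 1 or more in size. With 1 library per group no test was made. Intervals are exact (binomial, Poisson or conditional for ratios of counts, 95%) and cover counting error only. Cells were clustered in Scanpy 1.11.5 (2000 variable genes, 30 components, 15 neighbours, Leiden resolution 1, leaving out class-rule, mitochondrial, ribosomal protein and sex-linked genes), with SciPy 1.17.1 and Python 3.11.15. Barcodes that Scrublet marked as doublets were kept by the member rule and left out in an alternative, and the 18 shared barcodes likewise. The calculations were tested on simulated data.

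Named stage genes come from the 20 with the highest value of the lowest of 4 ratios (to precursors and mature cells, in 2 libraries). Named genotype genes come from the 10 highest and 10 lowest ratios past 2-fold at 100 CPM or more, with a UMI in 10% or more of the higher library's members and still past 2-fold without the richest cell of each library. List genes may be named as well, and some genes are not reported here. Members and lists were chosen with earlier results of these data known, and the split by cluster was chosen after seeing the data. CPM is not scaled to gene length, so levels are compared between cells and not between genes. Alternatives were cell and gene filters, thinning to 2000 UMIs, other added values, equal cell weights, other rule limits and leaving out the richest cells.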

Additional observations from a re-analysis of the deposited data

How the results depend on the processing

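No paired analysis was possible because each hippocampal genotype is 1 library. With the differentiating-cluster members alone, the log2 ratios of shares moved to -0.57 (filtered cells), -1.08 (against precursors) and -0.31 (against mature cells), 107 genes were stage-peaked against 42, and 324 were past 2-fold against 196. The list medians were then 0.38 (precursor genes), -0.30 (newly formed), -0.26 (myelin), -0.22 (sterol) and -0.055 (dissociation), and reversals were -0.071 (transcription factors), -0.058 (ion channels), -0.090 (type I interferon), -1.01 (neuroblast markers, 1 gene), -1.42 (Ednrb) and -0.51 (Emid1). Genes past 2-fold numbered 432 with thinned cells, 88 with 20 CPM added, 73 at a minimum of 100 CPM and 1623 with no minimum, and in the differentiating cluster 913, 152, 80 and 3243. With no minimum, 80 genes were stage-peaked (163 in the differentiating cluster). The myelin median over all members was -0.63 without doublets, -0.36 thinned, -0.36 with no minimum, -0.67 with equal weights, -0.53 without the 5 richest members and 0.24, reversed, with at least 4 rule genes. The precursor median was 0.43 thinned, 0.43 with at least 4 rule genes and 0.75 without the 5 richest. With class-rule genes left out (added after the data were seen), the newly formed median was -0.75. It was -0.51 with equal weights, -0.33 with at least 4 rule genes and -0.60 without the 5 richest. The sterol median was -0.85 at a minimum of 100 CPM, -0.35 with no minimum, -0.72 with equal weights and -0.070 with at least 4 rule genes. The interferon-gamma median was 0.064 thinned and 0.28 without the 5 richest, and the dissociation median -0.22 thinned, -0.10 with no minimum, -0.079 with at least 4 rule genes and -0.076 without the 5 richest. Other reversals with at least 4 rule genes were Lpar1 (0.0019), Ninj1 in the stage comparison (-0.023), type I interferon (-0.039) and, in the differentiating cluster, myelin (0.38), sterol (0.011) and receptor genes (0.022, and 0.29 thinned). Ncan was -0.25 when thinned. Of 40 genotype results for named genes 20 fell below 2-fold or changed direction in some alternative. Of 40 stage results 2 did. Fewer genes or cells enter most of these alternatives, and the cause of each change was not tested.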

Other observations

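A few list genes of the differentiating-cluster members are not described above, and they were chosen after their values were seen. Smad7, an inhibitor of BMP and TGF-beta signalling, was at 85.0 and 111 CPM in DTR- and DTR+, against 38.9 and 38.2 in precursors and 344 and 415 in mature cells. Sox4, a factor of immature neural cells, was at 340 and 254 CPM, against 329 and 368 in precursors and 21.7 and 13.6 in mature cells. St18, a zinc-finger factor of oligodendrocytes, was at 42.5 and 68.1 CPM, against 1.31 and 1.499 in precursors and 131 and 142 in mature cells. Ubb, a ubiquitin gene, was lower in DTR+ members (1805 and 952 CPM) and by a like amount in precursors (1562 and 768 CPM) and mature cells (1710 and 770 CPM).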
